A study of Mus musculus with 10 samples.

Results

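The Myc network is a family of transcription factors that compete for a common partner and for the same DNA site. The genes were chosen by name, with earlier results of these data known. Of the 10 named genes, 7 had a row in the deposited table of 10141 genes. They were the activator Myc, the shared partners Max and Mlx, and the antagonists Mxd1, Mxd3, Mxi1 and Mnt. Mycn, Mycl and Mxd4 had no row and are not analysed here. Activators are thus represented by 1 of 3 named genes and antagonists by 4 of 5.

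MYC binds DNA as a dimer with MAX at E-boxes and raises the transcription of genes for ribosome production, nucleotide synthesis and cell growth. The MXD proteins, MXI1 and MNT dimerise with MAX at the same sites and recruit the SIN3 and histone deacetylase corepressors. MLX pairs with some of these antagonists and with the glucose-responsive factors MondoA and ChREBP. In granulocyte development MYC is known to fall as cells stop dividing, and MXD1 is known to rise with terminal differentiation.

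Leukaemia cells were GFP+ and carried the MLL-AF9/GFP label. MLL-AF9 is an oncogenic fusion of the chromatin regulator MLL with AF9. They had been given to CD45.1 recipients by tail vein, and marrow was taken once GFP+ cells made up 2% of peripheral blood. The comparison group was GFP-CD11b+ myeloid cells of the micro-environment, CD11b being a surface integrin of myeloid cells, sorted from the same kind of leukaemic marrow. The sample labels describe flow sorting of both populations, while the design text describes magnetic selection of CD45.2-CD11b+ cells for the myeloid group. Each group had 5 libraries, and the ages of the mice and the number of leukaemia clones were not given. The labels do not say that the libraries came from separate animals, so p-values measure only the spread between these libraries. No normal immature cells were analysed here, so leukaemia and stage of maturation cannot be told apart. In these bulk samples, fewer cells of a type and less RNA per cell cannot be told apart either.

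Levels are given as normalised reads, the reads of a gene in a library divided by that library's size factor, recovered from the deposited log2-scale values. Recovered reads summed to between 24100399 and 32251808 in a library. Its genes had already been selected for a difference between the groups, with no unadjusted p above 0.243, so nearly every gene passes a test. Of 8079 genes tested with limma, 99.8% passed at an adjusted p of 0.05, with 49.1% higher and 50.7% lower in leukaemia. Itgam, the CD11b gene, had a mean ± SD of 12227 ± 1128 normalised reads over the 5 leukaemia libraries and 97794 ± 13873 over the 5 myeloid libraries. The 10 neutrophil markers, all with a row, summed to between 67019 and 71867 in leukaemia libraries and between 2809800 and 4461800 in myeloid libraries. Myeloid replicates 2 and 4 stood apart, with 4461800 and 3730500 neutrophil marker reads against at most 3068100 in the others. Their monocyte and macrophage markers, 7 of 12 with a row, summed to 29223 and 34122 against 65941 to 75022. Erythroid markers, 2 of 8 with a row, summed to at most 62.0 in a leukaemia and 245 in a myeloid library. T and NK cell markers, 7 of 9 with a row, summed to 2909 to 5879 and to 1542 to 3948, and Cd3g was at 0 reads in every leukaemia library. Nkg7 alone made the leukaemia sum the higher one (4331 normalised reads against 1004), and the other 6 were lower in leukaemia, among them Klrb1c (20.6 against 542) and Ncr1 (0.93 against 450). Stroma and endothelium markers, 3 of 7 with a row, summed to 6413 to 7621 in leukaemia and 855 to 1032 in myeloid libraries, mostly through Pecam1 (6812 against 758), with Cxcl12 at 438 against 15.6 and Col1a1 at 17.4 against 169. The part of these markers in the results below was not tested.

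RefSeq promoter sequences (GRCm38.p6) were found by symbol for 6 of the 7 members, all but Myc. They are shown because Max, Mlx and Mnt hold the site that the network itself binds, and because Mxd1 is the member that differed most. Capitals mark the E-box CACGTG, which reads the same on both strands, in Max, Mlx and Mnt. In Mxd1, which has no E-box in its window, capitals mark the GC box GGGCGG, searched on both strands (CCGCCC on the other), the core motif of Sp-family factors. Its 6 matches include an overlapping pair at the 3′ end. Each sequence is on the gene's strand, 5′ to 3′.
Max, 30 bases across the start, chr12:76962234-76962263, minus strand: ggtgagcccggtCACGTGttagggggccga
Mlx, 250 bases upstream, chr11:101087040-101087289, plus strand: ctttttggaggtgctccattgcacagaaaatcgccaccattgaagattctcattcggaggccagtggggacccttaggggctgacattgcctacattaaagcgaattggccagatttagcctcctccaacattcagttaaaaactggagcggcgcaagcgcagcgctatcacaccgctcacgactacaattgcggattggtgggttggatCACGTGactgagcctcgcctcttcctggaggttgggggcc
Mnt, 250 bases upstream, chr11:74830674-74830923, plus strand: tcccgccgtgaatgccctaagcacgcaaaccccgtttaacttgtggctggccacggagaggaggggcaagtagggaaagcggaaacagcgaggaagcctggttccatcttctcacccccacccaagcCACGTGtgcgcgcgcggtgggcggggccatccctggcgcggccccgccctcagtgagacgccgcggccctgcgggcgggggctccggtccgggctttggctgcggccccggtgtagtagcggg
Mxd1, 250 bases upstream, chr6:86669160-86669409, minus strand: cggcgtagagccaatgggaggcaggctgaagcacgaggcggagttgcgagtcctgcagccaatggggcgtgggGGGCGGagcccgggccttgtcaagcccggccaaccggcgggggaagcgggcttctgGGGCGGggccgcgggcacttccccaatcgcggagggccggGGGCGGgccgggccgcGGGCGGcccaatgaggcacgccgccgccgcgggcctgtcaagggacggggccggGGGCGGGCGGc

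The E-box of Max spans the annotated start, that of Mlx runs from position -40 to -35 and that of Mnt from -123 to -118, counted from the start. In windows from 250 bases before to 50 after the start, 3 of the 6 members with a sequence held an E-box, against 12.7% of 6512 tested genes and 8.09% of 27025 genes with a sequence. A GC box was held by 4 of the 6 members, against 70.2% of the tested genes. Mxd3 held 8 matches, Mxd1 6, Mnt 4 and Mxi1 from 1 to 4 by promoter entry. Matches in the printed Mnt sequence are left in lower case, so the marked boxes are not particular to Mxd1. A match of letters is not evidence of binding, and the expression table holds no binding data.

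Myc was the member that was higher in leukaemia. Its normalised reads in leukaemia replicates 1 to 5 were 3260, 4126, 3925, 4507 and 4140. In myeloid replicates 1 to 5 they were 532, 550, 276, 472 and 359. The groups did not overlap, and the lowest leukaemia library lay 5.93-fold above the highest myeloid library. Means were 3992 ± 460 and 438 ± 117 (SD, n = 5 each), a 9.12-fold difference (limma log2 difference 2.30, SE 0.10, adjusted p = 2.57e-10). Of all tested genes that were higher in leukaemia, 42 had a larger log2 difference, which places Myc at rank 43. That rank is on the deposited scale, which compresses low genes. There 99.5% of tested genes had a lower log2 difference than Myc, against 98.6% with limma-voom and the same size factors. Among the myeloid libraries Myc varied more than any other member, with a coefficient of variation of 26.8% and a 1.99-fold range.

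Max, the obligate partner of MYC and a shared partner of the antagonists, fell in leukaemia although Myc rose. It had 2127, 2310, 2020, 2206 and 2255 normalised reads in leukaemia replicates 1 to 5. In the myeloid replicates it had 11133, 14825, 10758, 14690 and 11339. Every myeloid library was at least 4.66-fold above every leukaemia library, with the highest values in myeloid replicates 2 and 4. The difference of means was 5.75-fold (limma log2 difference -2.25, SE 0.09, adjusted p = 1.46e-10). The leukaemia libraries were close together, with a coefficient of variation of 5.2% against 16.2% in myeloid cells.

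Mlx, the partner of MondoA and ChREBP, differed little. It had 1471, 1731, 1641, 1862 and 1573 normalised reads in leukaemia replicates 1 to 5 and 1895, 2152, 1999, 1981 and 2200 in the myeloid replicates. The groups were separated by 1.02-fold at their nearest libraries. The means differed 1.24-fold (limma log2 difference -0.24, SE 0.06, adjusted p = 0.0020), and 89.8% of tested genes had a larger absolute difference. Exons of Mlx overlap exons of Psmc3ip on the other strand in GENCODE, and the strand setting of the counting was not given. Reads of that overlap cannot be told apart. Psmc3ip, a meiotic recombination gene, went the other way, at 708 ± 73.3 normalised reads (leukaemia) against 145 ± 55.7 (myeloid).

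Mxd1, the antagonist tied to terminal differentiation, had the largest difference of the members. It had 1143, 1166, 1327, 1076 and 1096 normalised reads in leukaemia replicates 1 to 5. In the myeloid replicates it had 35883, 57490, 40568, 54047 and 43424. The lowest myeloid library lay 27.0-fold above the highest leukaemia library. Means were 1161 ± 99.5 and 46282 ± 9150 (SD, n = 5 each), a 39.8-fold difference (limma log2 difference -4.77, SE 0.12, adjusted p = 2.12e-12). Mxd1 ranked 18 of 8079 tested genes by absolute log2 difference on the deposited scale. There 0.21% of tested genes had a lower log2 difference than Mxd1, against 1.15% with limma-voom and the same size factors.

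**Figure D1:**
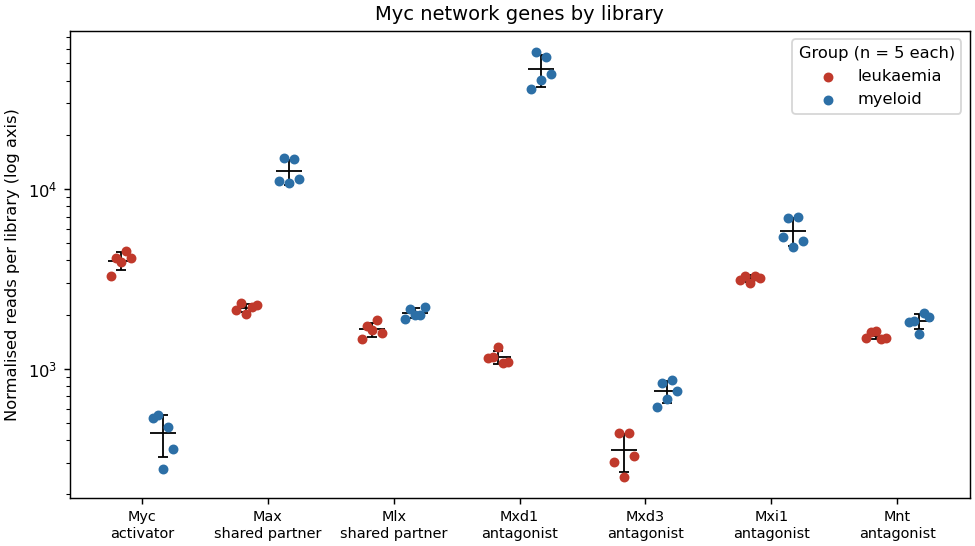
Normalised reads (log axis) of the 7 Myc network genes in each library, red for leukaemia and blue for myeloid cells; the horizontal mark and bar are the mean ± SD of 5 libraries. Myc is higher in every leukaemia library, Mxd1 and Max are higher in every myeloid library by at least 27.0-fold and 4.66-fold, and Mnt overlaps.

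Mxi1, a further MAX-binding antagonist, was also lower in leukaemia. Its normalised reads were 3102, 3295, 2994, 3280 and 3195 in leukaemia replicates 1 to 5 and 5410, 6898, 4734, 6999 and 5128 in the myeloid replicates. The groups did not overlap, and myeloid replicates 2 and 4 were the highest. The difference was 1.84-fold (limma log2 difference -0.76, SE 0.10, adjusted p = 5.86e-06). The leukaemia libraries had the lowest coefficient of variation of any member in either group, 3.98%. Exons of Mxi1 overlap those of Gm10197, a protein-coding gene on the other strand that had no row, and reads of that overlap cannot be told apart either.

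Mxd3, a family member that is known to be expressed in dividing cells, was the least abundant antagonist in normalised reads. Its values were 302, 436, 251, 440 and 327 in leukaemia replicates 1 to 5 and 616, 834, 674, 865 and 749 in the myeloid replicates. It was 2.13-fold lower in leukaemia with no overlap (limma log2 difference -0.61, SE 0.09, adjusted p = 1.6e-05), and its leukaemia libraries had the highest coefficient of variation of that group, 23.8%. Its exons overlap those of Prelid1, a mitochondrial lipid-transfer gene, on the other strand. Prelid1 was far more abundant, at 6980 ± 633 normalised reads (leukaemia) against 11825 ± 1988 (myeloid), and it went the same way as Mxd3. Reads of the overlap cannot be told apart here, so the Mxd3 values are uncertain.

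Mnt, the broadly expressed antagonist, was the member whose groups overlapped. It had 1488, 1598, 1616, 1458 and 1477 normalised reads in leukaemia replicates 1 to 5 and 1819, 1838, 1566, 2034 and 1936 in the myeloid replicates. Myeloid replicate 3 lay within the leukaemia range and the other myeloid libraries above it. The means differed 1.20-fold (limma log2 difference -0.20, SE 0.06, adjusted p = 0.00582), and 93.6% of tested genes had a larger absolute difference.

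In all, 1 member passed as higher and 6 as lower in leukaemia, where 99.8% of tested genes passed, so the number passing says nothing particular about the members. The groups did not overlap for 6 of 7 members, against 86.8% of tested genes. An absolute log2 difference of at least 1 was reached by 3 of 7, against 27.7% of tested genes. These were Myc among the 9.52% of tested genes that were higher by that much, and Max and Mxd1 among the 18.1% that were lower by that much.

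The directions of Myc, Max, Mxd1, Mxd3 and Mxi1 held under each scaling tried, and those of Mnt and Mlx did not. With the authors' size factors the table summed to 1.56 times as many normalised reads in myeloid as in leukaemia libraries. Total-count scaling, in which recovered reads are divided by each library's sum over the table before limma-voom, raised the median log2 difference of all tested genes by 0.64. Under that scaling Mnt (log2 difference 0.38, adjusted p = 0.000331) and Mlx (0.33, adjusted p = 0.00125) passed as higher in leukaemia, and 3 members were higher and 4 lower. Over all genes, 57.2% were then higher and 27.6% lower. After quantile normalisation neither gene passed (Mnt -0.04, adjusted p = 0.538; Mlx -0.04, adjusted p = 0.533). Measured from the median over all tested genes, Mnt stood at -0.05 and Mlx at -0.08 with the authors' size factors and at -0.05 and -0.09 under total-count scaling. On the same relative scale under the authors' size factors, Myc stood at 2.46, Max at -2.09, Mxd1 at -4.61, Mxd3 at -0.45 and Mxi1 at -0.61.

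**Figure D2:**
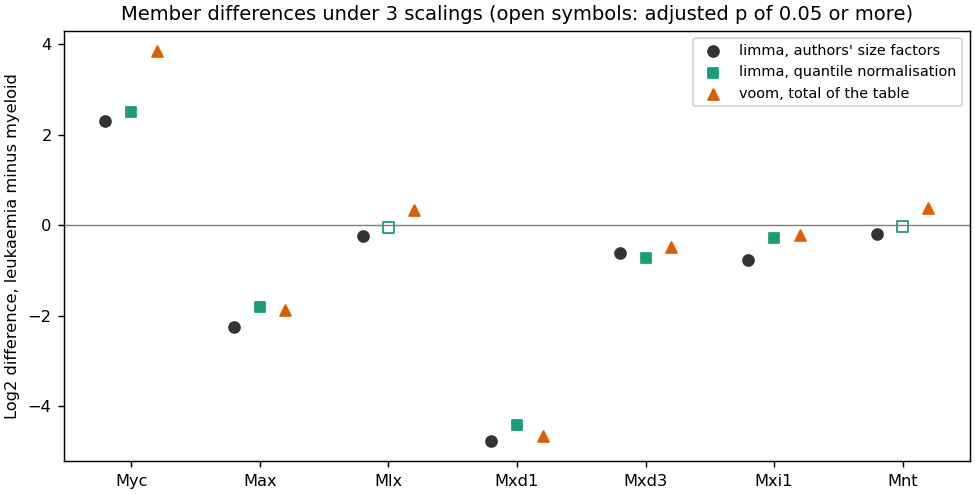
Log2 difference, leukaemia minus myeloid, of each member under 3 scalings; limma on the deposited variance-stabilised values for circles and squares, limma-voom on recovered reads for triangles, so triangles are on a less compressed scale. Open symbols did not pass. Mnt and Mlx move from -0.20 and -0.24 to 0.38 and 0.33, and the other 5 members stay on their side of 0.

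Ratios between members within 1 library do not depend on the size factors, and they were formed from normalised reads per kilobase of GENCODE exon sequence. By this measure Myc made up 56.9% ± 2.49 of the summed level of Myc and its 4 antagonists in the leukaemia libraries and 1.97% ± 0.57 in the myeloid ones (mean ± SD over 5). The range was 53.0% to 59.4% in leukaemia and 1.42% to 2.91% in myeloid libraries, with no overlap. The antagonists together were at 0.76 ± 0.08 times the level of Myc in leukaemia and 52.8 ± 13.2 times in myeloid cells. With lengths taken from the longest coding transcript instead, the share of Myc was 53.5% ± 2.43 and 1.55% ± 0.46. No test is given for these ratios, since the members were chosen with results of these data known. The ratios cover only members with a row. Mycn, Mycl and Mxd4 had none. In a table selected for group differences a missing row does not show low expression, so the balance of the whole network is not given.

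The make-up of the antagonists with a row, which leave out Mxd4, differed as well. Mxd1 was 80.5% ± 1.64 of the summed antagonist level per kilobase in myeloid cells and 14.9% ± 1.53 in leukaemia. In leukaemia Mxi1 led with 42.0% ± 1.16, followed by Mnt with 29.8% ± 1.63 and Mxd3 with 13.3% ± 2.70. In myeloid cells Mxi1 held 10.6% ± 0.97, Mnt 4.99% ± 0.78 and Mxd3 3.92% ± 0.22. Left without Mxd1, the share of Myc was 60.8% ± 2.34 in leukaemia and 9.24% ± 1.88 in myeloid cells, so the groups stayed apart. This share still holds the difference of Myc itself, at 1469 ± 169 and 161 ± 43.1 per kilobase. The other 3 antagonists summed to 943 ± 51.2 per kilobase in leukaemia and 1568 ± 218 in myeloid cells. Max stood at 0.24 ± 0.02 times the summed level of Myc and antagonists in leukaemia and at 0.42 ± 0.02 times in myeloid cells.

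**Figure D3:**
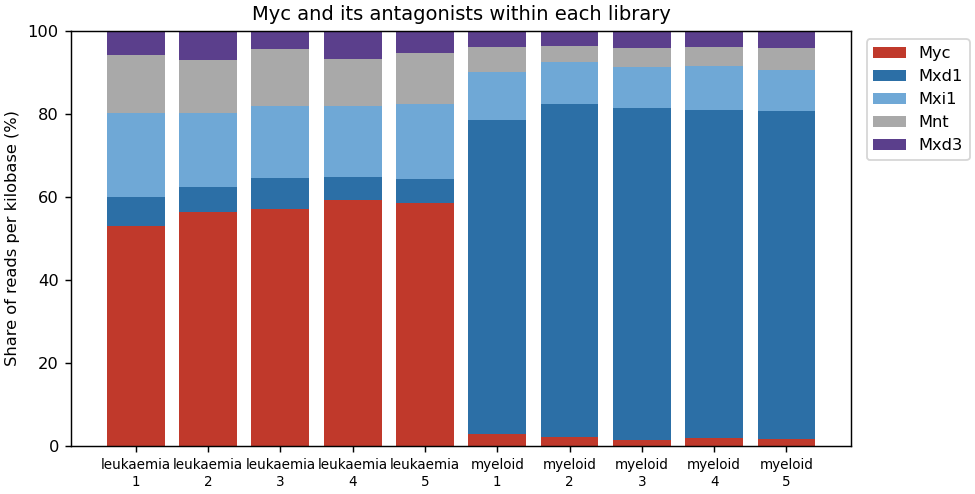
Share of the summed normalised reads per kilobase taken by Myc and by each antagonist with a row. Stacked bars run from 0 to 100% in each of the 10 libraries. Myc takes 53.0% to 59.4% in the leukaemia libraries and at most 2.91% in the myeloid libraries, where Mxd1 is the widest band.

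Per kilobase, the order of levels in leukaemia was Myc (1469 ± 169), Mlx (828 ± 74.8), Max (607 ± 31.5), Mxi1 (465 ± 18.5), Mnt (330 ± 16.0), Mxd1 (164 ± 14.1) and Mxd3 (148 ± 35.3). Mxd1 and Mxd3 did not differ beyond their spread. In myeloid cells the order per kilobase was Mxd1 (6544 ± 1294), Max (3488 ± 564), Mlx (1023 ± 63.4), Mxi1 (855 ± 153), Mnt (397 ± 37.8), Mxd3 (316 ± 44.4) and Myc (161 ± 43.1). There the mean ± SD ranges of Mlx and Mxi1 overlapped, while Mnt was above Mxd3 per kilobase in each of the 5 libraries. Among the members with a row, Myc was thus first in one group and last in the other. With the longest coding transcript as length, Myc and Mxd1 stayed at the top of leukaemia and myeloid cells, while Max passed Mlx and Mxd3 passed Mxd1 in leukaemia, and Mxi1 passed Mlx and Mxd3 passed Mnt in myeloid cells.

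Among the myeloid libraries, Max, Mxd1, Mxd3 and Mxi1 each had their 2 highest values in replicates 2 and 4, the libraries with the most neutrophil and the fewest monocyte marker reads. Replicates 2 and 4 also had the highest sums of normalised reads, 38114500 and 37422400 against 32545700 to 33579000. The part of these sums in the order was not tested. Mnt, Mlx and Myc did not share that order. The highest Myc values were in replicates 2 and 1, at 550 and 532. B cell markers, 6 of 8 with a row, summed to 537 and 483 in replicates 2 and 4 and to between 1033 and 2249 in the others. The part of cell make-up in these values was not tested. With replicates 2 and 4 left out, a setting chosen after seeing the data, 1 member was higher and 6 were lower as before. Folds were then 10.3 for Myc, 5.07 for Max, 34.4 for Mxd1, 1.60 for Mxi1, 1.93 for Mxd3, 1.23 for Mlx and 1.16 for Mnt.

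**Figure D4:**
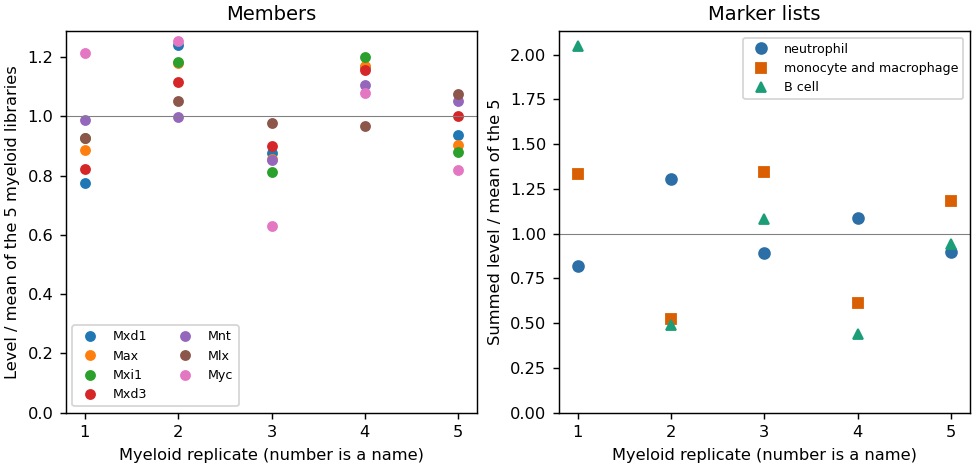
Left, each member's normalised reads in the 5 myeloid libraries divided by its mean over them; right, the same for summed marker lists. Max, Mxd1, Mxd3 and Mxi1 are highest in replicates 2 and 4, where neutrophil markers are highest and monocyte and B cell markers lowest. Replicates 2 and 4 also have the highest sums of normalised reads.

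Other parts of the network were described by lists of known cofactors and targets. The lists were chosen with earlier results of these data known, so their counts are descriptions and not tests. Over all tested genes the median log2 difference was -0.16, with 49.1% higher and 50.7% lower in leukaemia. The extended network had 2 tested genes. Mga, a large MAX partner with repressor function, rose 1.54-fold (3903 ± 635 against 2536 ± 488 normalised reads). Mlxip, which encodes the MLX partner MondoA, was 1.42-fold lower (3153 ± 161 against 4493 ± 284), a direction that was lost under total-count scaling (log2 difference 0.13, adjusted p = 0.147) or after quantile normalisation (0.02, adjusted p = 0.78). Mlxipl, the ChREBP gene, had no row.

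MondoA and ChREBP induce Txnip and Arrdc4 when glucose is taken up, and the related gene Arrdc3 was listed with them. All 3 genes were lower in leukaemia, against 50.7% of all tested genes, with a median log2 difference of -2.21. Txnip, an inhibitor of glucose uptake, was 5.10-fold lower (5166 ± 410 against 26361 ± 3107 normalised reads). Arrdc3, a related arrestin gene, was 7.53-fold lower (614 ± 83.8 against 4624 ± 662). Arrdc4 had a log2 difference of -1.14. All 3 stayed lower under total-count scaling, with a median of -1.71.

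Of 42 tested genes known as induced targets of MYC, 40 rose and 2 fell in leukaemia, with a median log2 difference of 1.59, and 35 rose by at least 1. Of all tested genes, 49.1% passed as higher and 9.52% as higher by at least 1. The list holds ribosome, nucleotide and growth genes that dividing cells express in general. It was chosen with earlier results of these data known, so these counts are not independent of them. Wdr12, a ribosome assembly gene, was 12.9-fold higher (2614 ± 242 against 202 ± 20.9 normalised reads). Cad, which begins pyrimidine synthesis, was 6.62-fold higher (5079 ± 217 against 767 ± 156). The lower members were Ccnd2, a cyclin gene (6.85-fold, 110 ± 9.88 against 750 ± 258), and Ldha, lactate dehydrogenase (1.45-fold, 13693 ± 1188 against 19809 ± 3517). Ldha did not pass under total-count scaling (log2 difference 0.12, adjusted p = 0.213).

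Of 6 tested genes known to be repressed by MYC, 5 fell and 1 rose in leukaemia (median -1.40), against 50.7% and 49.1% of all tested genes. This list, too, was chosen with earlier results of these data known. Gadd45a, a stress-induced growth arrest gene, was 10.8-fold lower (430 ± 81.0 against 4650 ± 802 normalised reads). Cdkn1b, which encodes the cell cycle inhibitor p27, was 5.29-fold lower (1730 ± 123 against 9158 ± 739). Cebpa, a myeloid transcription factor gene, was 1.64-fold higher (2881 ± 460 against 1758 ± 341). Under total-count scaling 2 were higher and 4 lower, with Gadd45b, named after its value was seen, turning from a log2 difference of -0.21 to 0.33. With no filter on low values 4 of the list were higher and 5 lower.

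**Figure D5:**
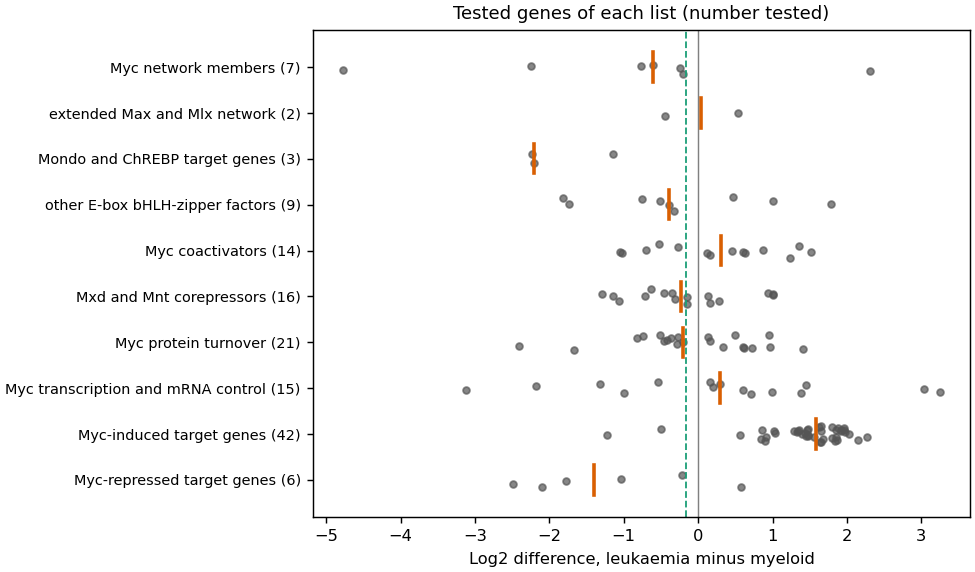
Log2 difference, leukaemia minus myeloid, of each tested gene (points) by list, with the list median as an orange bar, 0 as a grey line and the median of all tested genes (-0.16) as a dashed line. The induced targets lie mostly above 0 (median 1.59), and the members spread from -4.77 to 2.30.

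Cofactors of the activating and repressing arms each went both ways, as did all tested genes, of which 49.1% were higher and 50.7% lower. Of 14 tested coactivators, 8 rose and 5 fell (median 0.31). Ruvbl1, a chromatin ATPase that binds MYC, was 4.55-fold higher (2345 ± 140 against 515 ± 52.6 normalised reads), and the acetyltransferase gene Kat2a was 3.87-fold higher. The acetyltransferase genes Crebbp (2.36-fold) and Ep300 (2.19-fold) were lower. Supt5, an elongation factor gene, was the most abundant member that did not pass (5422 ± 217 against 4942 ± 284, limma adjusted p = 0.0513). It passed in 5 of the alternative settings, with an adjusted p from 9.6e-08 to 0.0472 in those. Under total-count scaling, 10 coactivators were higher and 3 lower.

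Of 16 tested genes of the corepressor list, 6 rose and 10 fell (median -0.23). Those that rose include Zbtb17 (log2 difference 0.16), which encodes a DNA-binding factor and not a corepressor of the antagonists. Rbbp4 (2.08-fold) and Rbbp7 (2.17-fold), histone-binding subunits, were higher, and Arid4a (2.81-fold) and Arid4b (2.73-fold), SIN3 complex subunits, were lower. Under total-count scaling, 9 were higher and 3 lower with a median of 0.31, so the split of this list depends on the scaling. The same held for 9 other factors of the E-box binding class, of which 3 rose and 6 fell, and 4 were higher and 3 lower under total-count scaling. Tfec (5.19-fold) and Tfap4 (4.11-fold), the latter a known MYC target, were higher, and the lysosomal regulators Tfeb (5.61-fold) and Tfe3 (4.53-fold) were lower.

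Among 21 tested genes that act on MYC protein stability, 10 rose and 10 fell (median -0.21), and 14 were higher and 4 lower under total-count scaling. Set, an inhibitor of the phosphatase PP2A, was 2.85-fold higher (11553 ± 453 against 4050 ± 648 normalised reads), and the ubiquitin ligase gene Huwe1 was 2.04-fold higher. Pim1, a kinase gene, was 8.08-fold lower (790 ± 244 against 6385 ± 1658), and the PP2A subunit gene Ppp2r5a was 3.41-fold lower. Pim2 did not pass (150 ± 24.4 against 229 ± 97.8, limma adjusted p = 0.0644), and it passed, as lower, in 3 other settings: without myeloid replicate 4 (adjusted p = 0.00653), without myeloid replicates 2 and 4 (0.00573) and after quantile normalisation (0.00372).

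Of 15 tested genes that act on Myc transcription or on its mRNA, 10 rose and 5 fell (median 0.29), against 49.1% and 50.7% of all tested genes. Igf2bp3, an mRNA-binding protein gene, was at 2668 ± 283 normalised reads in the leukaemia libraries and at 8.76 ± 6.38 in the myeloid ones. Myb, a transcription factor gene of immature blood cells, was 9.69-fold higher (25843 ± 2691 against 2667 ± 417). The mRNA decay factor genes Zfp36l1 (40.9-fold, 32.4 ± 16.7 against 1326 ± 425) and Zfp36 (10.5-fold) were lower.

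The tested genes whose profile over the 10 libraries was most like that of Myc were Gstm1, Nt5dc2, Ces1d, Ppm1f and Mt1. Likeness was the root mean square difference between profiles centred on their own means, in log2 units. It ran from 0.11 for Gstm1 to 0.15 for Mt1. These genes had limma log2 differences from 2.14 (Gstm1) to 2.31 (Nt5dc2), beside 2.30 for Myc. The measure takes in the difference between the groups, so it does not show that genes vary with Myc or Mxd1 within a group. Those most like Mxd1 were Slc2a3, Adam8, Ctse, Itgb2l and Wfdc21, from 0.08 for Slc2a3 to 0.14 for Wfdc21. Slc2a3, the gene of the glucose transporter GLUT3, was at 651 ± 67.7 normalised reads in the leukaemia libraries and 30715 ± 4544 in the myeloid ones, beside 1161 ± 99.5 and 46282 ± 9150 for Mxd1.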

How the data were processed

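RNA sequencing of 5 leukaemia and 5 myeloid libraries was used. The authors deposited 1 table, whose values are normalised, variance-stabilised and on a log2-like scale. The tools HISAT2 (2.0.4 and 2.2.1) and DESeq2 are named in the submitters' processing notes; the build, annotation, counter and strand setting are not given in the sources used here. All libraries share the lowest value, 8.1823, taken as 0 reads. The parametric variance-stabilising function was inverted from that value, and the size factor that made low values whole was found for each library (100% whole within 0.1 read, up to 300 reads); a recovered read may be part of a counted pair, and the form of the function is assumed. Genes with a mean over 1 unit above the lowest value (about 145 normalised reads) were tested with limma 3.58.1 (R 4.3.3, trended prior, two-sided, Benjamini-Hochberg over 8079 genes at 0.05). Log2 differences are on the variance-stabilised scale, which compresses low genes; folds are ratios of mean normalised reads. On simulated data (8228 genes, 50 genes per size), 20% of 1.25-fold, 76% of 1.5-fold and 100% of 2-fold changes were called. The simulation used an assumed spread and left 8031 genes unchanged, while 99.8% of the real tested genes passed. Its adjusted cut-off was therefore stricter, and these call rates do not carry over to the real table. The members and the gene lists were chosen with earlier results of these data known. Named genes were all members, up to 2 highest and 2 lowest passing genes and the most abundant non-passing gene of each list, and the 5 genes most like Myc and Mxd1. Arrdc4 was named in addition, after its value was seen. Alternatives were filters, quantile normalisation, voom, an untrended prior, a replicate block, counting all 55450 annotated genes as tests, and leaving out libraries. Of the table's names, 10133 were GENCODE symbols and 4 were numbers, which were not named.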

Additional observations from a re-analysis of the deposited data

Results flagged for a closer look

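In 100 group-by-gene sets of 5 libraries (50 genes of the text), 6 had 1 library far from the others, its gap to the nearest exceeding 0.71 of the range; chance flags about 1 in 20 such sets. None was a member. Tfec had 3766 normalised reads in leukaemia replicate 4, against 3318 to 3376 in the others. Tfap4 had 689 in leukaemia replicate 1, against 767 to 784. Zfp36l1 had 4.25 in leukaemia replicate 4, against 31.0 to 45.4. Ctse had 338 in leukaemia replicate 1, against 273 to 275. Cad had 1045 in myeloid replicate 2, against 669 to 725. Gadd45a had 3282 in myeloid replicate 4, against 4614 to 5273.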

How the results depend on the processing

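Myc, Max, Mxd1, Mxd3 and Mxi1 kept their direction and their call in every setting in which they were tested; Mxd3 was below the stricter filter. Myc ranged from 2.23 to 3.85, Max from -2.51 to -1.81, Mxd1 from -5.29 to -4.42, Mxd3 from -1.12 to -0.48 and Mxi1 from -0.86 to -0.22. Mnt and Mlx lost their calls after quantile normalisation (-0.036 for Mnt, -0.042 for Mlx). They turned direction under total-count scaling (0.38 and 0.33), where 3 members were higher. Of all tested genes, 6854 then passed, with 2232 lower and 4622 higher, against 4097 and 3965 in the main fit. Of the distinct genes of the pathway lists, 25 were then lower and 90 higher, against 47 and 79 in the main fit. Mlxip changed sign after quantile normalisation and under total-count scaling (0.018 and 0.13), as did Ldha (0.076 and 0.12). Pim2 did so under total-count scaling (0.14). None of these changed values passed. The stricter filter left 2415 genes higher of 3965, since fewer genes were tested. Leaving out 1 library changed no member's call, and the ranges were 2.23 to 2.37 for Myc, -2.30 to -2.19 for Max, -4.86 to -4.69 for Mxd1, -0.65 to -0.56 for Mxd3, -0.83 to -0.70 for Mxi1, -0.27 to -0.21 for Mlx and -0.25 to -0.17 for Mnt. With the replicate block, 3940 genes were higher and 4078 lower, and 1 member was higher and 6 lower. The libraries of both groups carry the same replicate numbers. Same-numbered libraries deviated together with correlations from -0.02 to 0.32, not every one above 0.1 and not each highest with its own number. Such weak correlations cannot settle whether the numbers pair the libraries. The main fit did not pair them, and the replicate block did. Genes outside the table and counting error in the myeloid Myc reads (at least 226 per library) limit precision.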

Other observations

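An E-box CACGTG lay within 250 bases before to 50 after the start of 11 of the 36 tested induced MYC targets that had a RefSeq promoter sequence (30.6%), against 12.7% of 6512 tested genes. They were Apex1, Cdk4, Eif4a1, Eif4e, Hspd1, Impdh2, Ldha, Mybbp1a, Nme1, Paics and Phb, named after the search was run. Among tested genes with a sequence, 13.8% of those higher in leukaemia and 11.7% of those lower held the motif. The target list was chosen with earlier results of these data known. These shares are descriptions with no test, and a match shows letters and not binding.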
